A study of Mus musculus with 2 samples.

Results

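The genes described here are Igf1, its receptor gene Igf1r and the genes of the IGF binding proteins, Igfbp1 to Igfbp7, in adult mouse lung. They were taken by gene symbol, and all 9 were found, as 9 of 43346 gene rows, with 26 transcript rows. RNA was sequenced from 2 libraries of lung tissue of C57BL/6J mice aged 8 weeks, made from pooled male and female littermates. No genetic change and no treatment is named for either library. The libraries, replicate 1 and replicate 2, form a single group, so no comparison between conditions exists and no p-value is given. The labels give both the same donor record but separate tissue samples, and do not say how many animals went into each, so part of their spread may be technical. Levels are deposited TPM, a transcript abundance per length. They can be compared between genes only as far as the transcript models and their lengths hold. Differences are ratios of replicate 1 over replicate 2 of counts scaled by TMM, a correction for library composition, unless TPM is named, and they compare these libraries only.

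IGF1 is a secreted growth factor that signals through a receptor tyrosine kinase, the product of Igf1r. Most IGF in tissue and blood is held by IGF binding proteins, which lengthen its life, keep it from the receptor or bring it to the cell surface, and proteases that cut them set it free. In the lung, IGF signalling is known for its part in alveolar growth, in fibroblasts and in vessels. IGFBP7 binds IGF weakly and is also known as a matrix protein of blood vessels.

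Most of the binding proteins share a run of cysteines near the start of the protein, which is the signature of the family's IGF-binding domain. The codons of that run are given for the genes that hold it, from the mm10 genome with the GENCODE M21 annotation, 5′ to 3′ on the coding strand. Cysteine codons are in capitals, and all runs lie in exon 1. They show what joins the listed genes and where Igfbp7 departs from the others, while Igfbp6 had no match and is not listed.
Igfbp1: ggcTGTggcTGCTGCccgacaTGT
Igfbp2: ggcTGCggcTGCTGCtccgtgTGC
Igfbp3: ggcTGCggcTGCTGCctgactTGC
Igfbp4: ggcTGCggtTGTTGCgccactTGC
Igfbp5: ggcTGTggcTGCTGCatgactTGC
Igfbp7: TGCgggTGCTGCccggtgTGT
The signature was searched in frame, on the coding strand, as codons for glycine, cysteine, glycine, cysteine and cysteine, any 2 codons, and a cysteine. The first 5 genes hold the whole signature. Igfbp7 holds it without that first codon, and no match was found in the coding sequence of Igfbp6. The whole signature was found in 18 of 21866 genes with a coding sequence (0.0823%), and the form without its first codon in 34 (0.1555%). The carboxyl part of the classical binding proteins is a thyroglobulin type-1 domain, which is marked by an in-frame run of cysteine, tryptophan, cysteine and valine codons. This run was found in exon 4 of Igfbp1 to Igfbp6, and no match was found in Igfbp7. Igfbp6 reads TGCtggTGTgtg at chr15:102149213-102149224 on the plus strand, and that run too was found in 18 of the 21866 genes (0.0823%). A match only says that these letters are present.

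Replicate 1 held 48234745 expected counts on gene rows, and replicate 2 held 44182836. Markers of lung cells were present in both. The 5 alveolar type 2 markers summed to 29186 TPM in replicate 1 and 30433 TPM in replicate 2. The 6 endothelial markers summed to 3529 and 3653 TPM, and the 6 fibroblast markers to 3049 and 3055 TPM. Other lists of lung cells were less even. The 5 smooth muscle markers summed to 1113 TPM in replicate 1 and 764 TPM in replicate 2, and the 5 macrophage markers to 349 and 271 TPM. None of the 4 cardiac muscle markers was 2-fold apart by counts, with sums of 360 and 274 TPM. Markers of several other tissues and of red cells differed more. All 5 markers of oesophageal squamous epithelium were over 2-fold higher in replicate 1, with a sum of 4043 TPM against 0.59 TPM in replicate 2, where Krt6a and Krtdap had no counts. The 5 skeletal muscle markers were also over 2-fold higher in replicate 1, at 2499 against 59.4 TPM, and Myh4 had no counts in replicate 2. The 5 intestinal or pancreatic markers were over 2-fold lower in replicate 1, at 3.76 against 194 TPM, and Sycn had no counts there. All 4 red cell genes were over 2-fold lower in replicate 1, at 21922 against 61268 TPM, as were 4 of 5 white adipocyte markers, at 100 against 253 TPM. Of 4 brown adipocyte markers 2 were over 2-fold higher in replicate 1, with a sum of 281 against 50.3 TPM.

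Igfbp7 was by far the highest of these genes, and 6 of the 7 binding protein genes lay above Igf1 in both libraries. The level of Igfbp7 was 2228 TPM in replicate 1 and 4440 TPM in replicate 2, rank 31 and rank 16 of all gene rows. Alone it gave 65.3% of the summed TPM of the 9 genes in replicate 1 and 75.6% in replicate 2 (mean 70.4% ± 7.27, SD, n = 2). The binding proteins followed in the order Igfbp4, Igfbp2, Igfbp6, Igfbp5 and Igfbp3, then came Igf1 and Igf1r, and Igfbp1 was near 0. At least 1 TPM in both libraries was reached by 8 of the 9 genes, against 32.0% of all gene rows. Parts of the order did not hold beyond the spread of the libraries. Igfbp2 and Igfbp6 changed places, with a TPM ratio of Igfbp2 over Igfbp6 of 0.915 in replicate 1 and 1.13 in replicate 2. Igfbp5 and Igfbp3 did so as well, with Igfbp5 over Igfbp3 at 2.14 and 0.807. Igfbp4 was above Igfbp2 by a ratio of 1.55 in replicate 1 but only 1.01 in replicate 2. The place of Igfbp4 also rested on Igfbp4-203, a processed transcript of 785 nt. Its other models summed to 124 TPM in replicate 1 and 213 TPM in replicate 2, a sum taken after the values had been seen. That sum, which leaves out the fragments of Igfbp4-203, lay below Igfbp2 and Igfbp6 in both libraries.

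**Figure D1:**
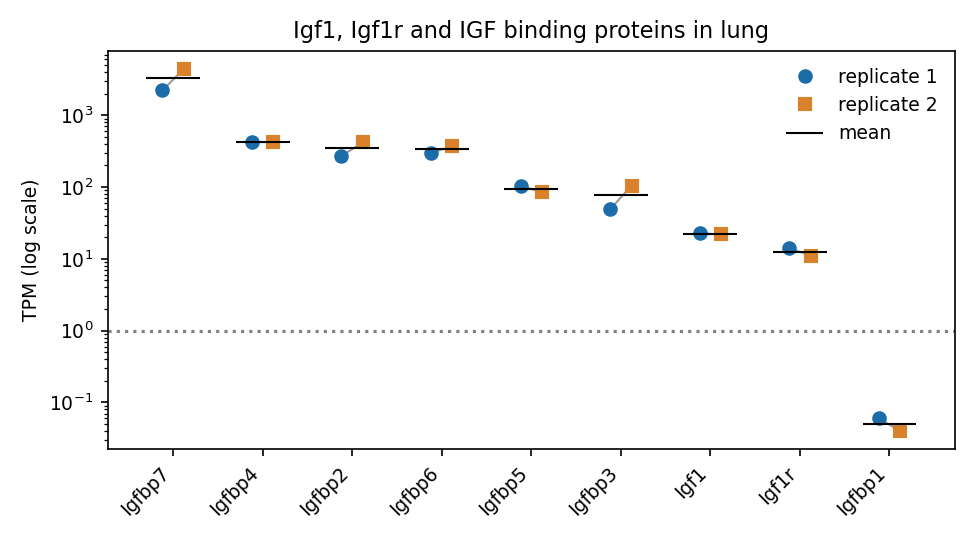
TPM (log scale) of the 9 genes in replicate 1 (circles) and replicate 2 (squares), with their mean as a bar and 1 TPM as a dotted line. Igfbp7 stands highest at 2228 and 4440 TPM, Igfbp4 hardly differs at 424 and 422 TPM, and Igfbp1 lies below 1 TPM in both.

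Igf1, the ligand (chr10:87858265-87937042, plus strand), had 22.8 TPM in replicate 1 and 21.9 TPM in replicate 2, from 559 and 524 counts (mean 22.3 ± 0.636 TPM, SD, n = 2). The libraries gave almost the same level. The ratio of TMM-scaled counts was 0.890, and its exact Clopper-Pearson 95% interval, 0.789 to 1.00, covers counting error only, as does each interval given in brackets after a ratio. Igf2, the other IGF, was at 22.5 TPM in replicate 1 and 15.8 TPM in replicate 2, so the ligands stood at like levels in replicate 1. The 3 protein-coding genes whose levels lay nearest to those of Igf1 over the 2 libraries were Zbed3 (23.0 and 21.7 TPM), Foxk1 (23.1 and 21.8 TPM) and Dyrk1a (23.1 and 22.0 TPM), by distance on the log2(TPM + 1) scale. With 2 libraries this likeness is of level only.

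The level of Igf1 rested on 1 short transcript model. Igf1-208 is a model of 510 nt that the annotation marks as incomplete, with its end not found. Its annotated coding sequence runs to its last base with no stretch after it. This model had 18.2 TPM in replicate 1 and 17.1 TPM in replicate 2. It took 79.7% and 78.0% of the gene's TPM (mean 78.9% ± 1.22, SD, n = 2). By counts it took only 35.3% in replicate 1 and 34.5% in replicate 2. The long model Igf1-202, 7052 nt with 6311 nt after the coding sequence, drew 232 counts in replicate 1 and 172 counts in replicate 2, yet stood at 0.94 and 0.71 TPM. A like number of fragments therefore gave a far higher TPM to the short model than to the long one. The other models together summed to 4.63 TPM in replicate 1 and 4.81 TPM in replicate 2, a sum taken after the values had been seen. That sum lay below the level of Igf1r in both libraries. It leaves out the 197 and 181 counts of Igf1-208, so it is not the level Igf1 would have without that model. A level with those counts shared among the other models was not computed.

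Igf1 messages differ in their leader exons and in a small exon near the end of the coding sequence, which sets the carboxyl tail of the precursor, the E peptide, but not the mature hormone. The small exon is 52 nt long and lies at chr10:87915298-87915349. The junctions are shown because the choice decides the reading frame of that tail. The first line has the 52 nt exon in capitals between 21 bases of its neighbours, as in Igf1-203, and the second has the exon skipped, as in Igf1-202, with the first bases of the next exon in capitals.
Igf1-203: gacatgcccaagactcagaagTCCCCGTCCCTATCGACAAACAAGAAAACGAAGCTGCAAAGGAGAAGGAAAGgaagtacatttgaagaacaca
Igf1-202: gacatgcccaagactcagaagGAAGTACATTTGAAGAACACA
The coding sequence is 477 nt in Igf1-203 and 459 nt in Igf1-202. Models with the exon held 86.4% of Igf1 TPM in replicate 1 and 87.9% in replicate 2, and models that skip it held 13.3% and 10.6%. Most of the first class was Igf1-208, at 18.2 of 19.7 TPM in replicate 1 and 17.1 of 19.2 TPM in replicate 2. That model ends at the exon, so it does not show a junction to the next exon. Igf1-203, the rest of that class, had 1.53 and 2.16 TPM, against 3.04 and 2.32 TPM for models that skip the exon. By counts the classes were much closer. Models with the exon drew 49.7% of Igf1 counts in replicate 1 and 55.8% in replicate 2, and those without it drew 49.4% and 39.6%. Igf1-208 alone drew 35.3% and 34.5%. Igf1-201, in which the exon is extended as the last exon, is in neither class and drew 0.83% and 4.63%. The leader exons gave the same kind of contrast. For models whose leader ends at position 87859412, the TPM share was 10.8% in replicate 1 and 13.4% in replicate 2, but the count share was 55.9% and 54.8%. The share of an Igf1 form hence depended on whether TPM or fragments were counted.

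Igf1r, the receptor (chr7:67952827-68233668, plus strand), had 14.1 TPM in replicate 1 and 11.1 TPM in replicate 2, from 2177 and 1681 counts (mean 12.6 ± 2.09 TPM, SD, n = 2). The deposited TPM intervals of the libraries did not overlap, but after TMM scaling the count ratio was 1.08 (1.01 to 1.15). It was quantified on a single transcript of 4489 nt, whereas the later annotation gives that transcript 11409 nt, 7270 nt of it after the coding sequence. Igf1 stood above Igf1r by a TPM ratio of 1.62 in replicate 1 and 1.96 in replicate 2. Insr, the insulin receptor gene, was at 16.3 and 14.0 TPM, near Igf1r. Igf2r, whose product takes IGF2 to the lysosome, was at 24.4 TPM in replicate 1 and 25.0 TPM in replicate 2.

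Igfbp7 (chr5:77349240-77408041, minus strand) drew 73312 counts in replicate 1 and 142599 counts in replicate 2, with a mean level of 3334 ± 1564 TPM (SD, n = 2). It was lower in replicate 1, at a TMM-scaled count ratio of 0.429 (0.425 to 0.433), a log2 difference of -1.22. Igfbp7-201 held 99.7% of the gene's TPM in both libraries. Igfbp7-202, which adds an exon of 93 nt, was at 7.72 TPM in replicate 1 and 11.6 TPM in replicate 2. The nearest gene by level was Mgp, the gene of matrix Gla protein, at 2836 TPM in replicate 1 and 5140 TPM in replicate 2. Scgb3a1, an airway secretoglobin gene, was at 2476 and 3190 TPM, and Fth1, the ferritin heavy chain gene, at 3197 and 4252 TPM. Of the endothelial markers 4 of 6 were lower in replicate 1 by counts and 3 of 6 by TPM, with a median log2 difference of -0.30 by counts and none of them 2-fold apart on either scale. By counts, the red cell and white adipocyte markers had medians of -1.57 and -1.51. The pericyte markers had a median of -0.07 and the smooth muscle markers 0.47. The part of any of these cells in the Igfbp7 difference was not tested. In bulk tissue, fewer cells of a type and less RNA per cell cannot be told apart.

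Igfbp3 (chr11:7206086-7213923, minus strand), the gene of the chief carrier of IGF in blood, had 48.9 TPM in replicate 1 and 105 TPM in replicate 2, from 3668 and 6524 counts (mean 77.0 ± 39.8 TPM, SD, n = 2). Its ratio was 0.469 (0.450 to 0.489), a log2 difference of -1.09. On TPM the whole difference lay in 1 of its 2 transcripts. Igfbp3-201 had 39.7 TPM in replicate 1 and 38.5 TPM in replicate 2, whereas Igfbp3-202 had 9.20 TPM in replicate 1 and 66.6 TPM in replicate 2. The share of Igfbp3-202 was 18.8% of the gene's TPM in replicate 1 and 63.4% in replicate 2. By counts the ratio was 0.881 (0.838 to 0.926) for Igfbp3-201 and 0.118 (0.107 to 0.130) for Igfbp3-202. Both transcripts carry the same coding sequence of 876 nt and differ at their 3′ ends. Igfbp3-201 splices from an exon 4 of 140 nt to an exon 5 of 1421 nt, and Igfbp3-202 ends with an exon 4 drawn out to 823 nt, at chr11:7207686-7208508. The deposited shares are estimates, since reads from the shared exons fit either model.

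Igfbp4 (chr11:99041244-99054392, plus strand), whose product is cut by the protease PAPP-A, had 424 TPM in replicate 1 and 422 TPM in replicate 2 (mean 423 ± 1.51, SD, n = 2). On TPM it was the steadiest of these genes. Its counts were 22106 in replicate 1 and 31245 in replicate 2, and their TMM-scaled ratio was 0.590 (0.580 to 0.601). Between the scales, the deposited mean length of the gene also differed, at 1652 nt in replicate 1 and 2309 nt in replicate 2, and the median of all genes was 0.21 on TPM and 0.00 by counts. For 8 of the 9 genes the counts of the libraries averaged 50 or more. A length at least 1.2-fold apart was seen in 1 of these 8, which was Igfbp4, and in 8.03% of all genes at that depth. TPM and count differences had opposite signs in 2 of the 8, Igf1 and Igfbp4, and in 21.5% of all genes at that depth.

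The length of Igfbp4 moved with its transcripts. Igfbp4-201, the full coding model of 3831 nt, had 121 TPM in replicate 1 and 211 TPM in replicate 2, or 28.5% and 50.1% of the gene's TPM. Igfbp4-203, a processed transcript of 785 nt, had 301 TPM in replicate 1 and 209 TPM in replicate 2, or 70.9% and 49.4%. By counts Igfbp4-201 led in both libraries, with 71.6% and 86.4%. Its ratio was 0.489 (0.480 to 0.499), against 1.23 (1.19 to 1.28) for Igfbp4-203. The models share exons 2 and 3 and part of exon 4, and differ in the first exon. Only the 28 nt first exon of Igfbp4-203 is absent from Igfbp4-201, and all its other bases lie in both. The counts and shares of these models are therefore estimates, since most reads of Igfbp4-203 fit either model. The intervals of their ratios leave out the error of dividing such reads. The junctions are shown because that exon decides whether the signature of the family is present. The first line is the whole 28 nt first exon of Igfbp4-203 in capitals, with the first 21 bases of exon 2, and the second is the last 28 nt of the first exon of Igfbp4-201, in capitals, with the same 21 bases.
Igfbp4-203: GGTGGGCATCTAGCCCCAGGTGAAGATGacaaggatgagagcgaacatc
Igfbp4-201: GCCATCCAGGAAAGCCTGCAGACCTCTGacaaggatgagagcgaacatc
The family's signature in Igfbp4, at chr11:99041650-99041673, lies in the first exon of Igfbp4-201, and Igfbp4-203 starts after it.

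**Figure D2:**
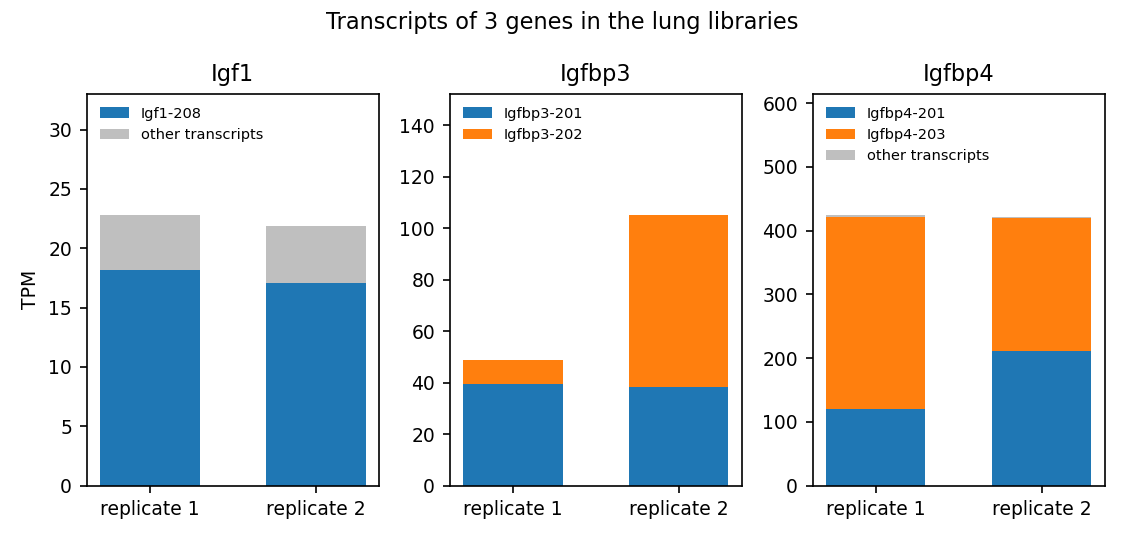
TPM of the transcripts of Igf1, Igfbp3 and Igfbp4, stacked, in replicate 1 (left bar) and replicate 2 (right bar). Igfbp3-201 is alike at 39.7 and 38.5 TPM while Igfbp3-202 differs at 9.20 and 66.6 TPM, and the total of Igfbp4 is alike although Igfbp4-203 gives 70.9% and 49.4% of it.

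**Figure D3:**
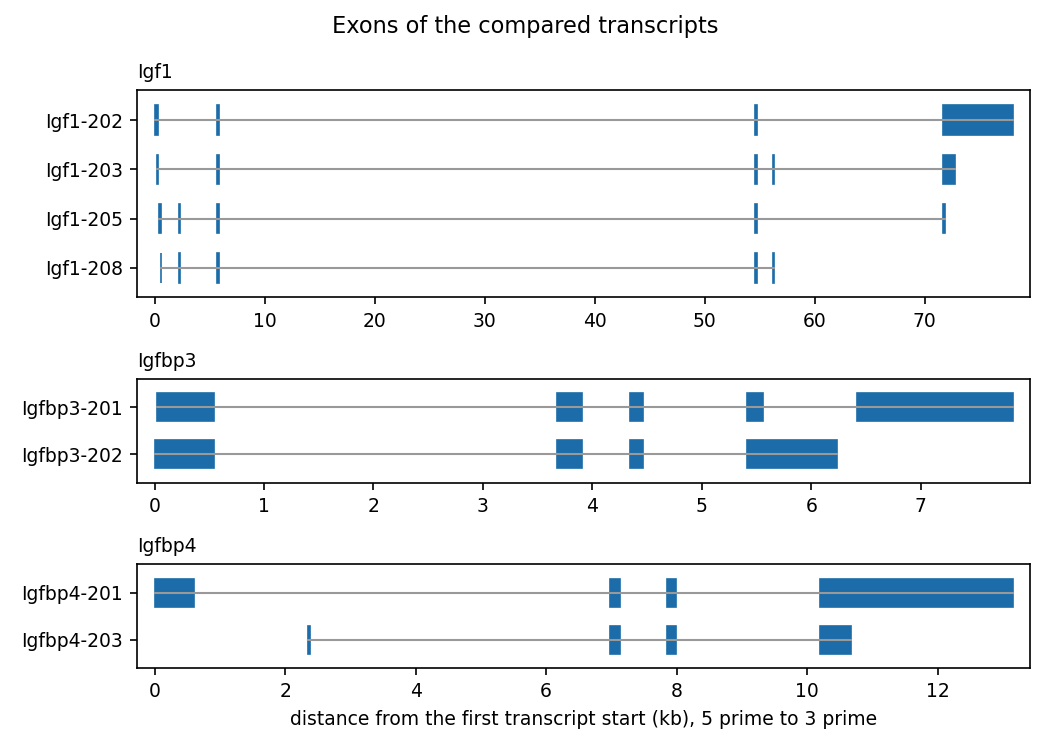
Exons (boxes) of the compared transcripts on the mm10 genome, drawn by distance in kb from the first transcript start, with 5′ at the left. Igf1-208 ends at the 52 nt exon, Igfbp3-202 has a longer exon 4 in place of exon 5, and Igfbp4-203 begins at a first exon of its own.

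Igfbp2 (chr1:72824503-72852474, plus strand), which in lung is known from alveolar type 1 cells, had 273 TPM in replicate 1 and 419 TPM in replicate 2, from 10807 and 16220 counts (mean 346 ± 103 TPM, SD, n = 2). It was lower in replicate 1, at a ratio of 0.556 (0.542 to 0.570). Of 5 alveolar type 1 markers 3 were also lower in replicate 1 by counts and 2 by TPM. By counts their median log2 difference was -0.19 and none was 2-fold apart, while by TPM Pdpn was over 2-fold higher in replicate 1, at 39.7 against 19.4 TPM. The difference of Igfbp2 was -0.85, and the part of those cells in it was not tested. Igfbp2-201 held 99.6% of the gene's TPM in replicate 1 and 99.9% in replicate 2.

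Igfbp6 (chr15:102144362-102149511, plus strand), whose product prefers IGF2, had 298 TPM in replicate 1 and 373 TPM in replicate 2, from 9728 and 11855 counts (mean 335 ± 52.4 TPM, SD, n = 2). It was lower in replicate 1, at a ratio of 0.685 (0.666 to 0.703). Igfbp6 is known from mesothelium and fibroblasts. All 5 mesothelial markers were lower in replicate 1 by counts and 4 by TPM, with a median log2 difference by counts of -0.59. Their differences ran from -0.16 for Msln to -1.50 for Wt1, the only 1 at least 2-fold apart, and Igfbp6 was at -0.55. The markers summed to 406 TPM in replicate 1 and 460 TPM in replicate 2, of which Krt19 alone gave 243 and 259 TPM. Of the 6 fibroblast markers 4 were lower in replicate 1 by counts, with a median of -0.20, and 4 were higher by TPM. The part of mesothelium or fibroblasts in the difference was not tested.

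Igfbp5 (chr1:72857932-72874884, minus strand), whose product binds matrix, lies 5457 bp from Igfbp2 but did not move with it. It had 104 TPM in replicate 1 and 84.8 TPM in replicate 2, from 21858 and 17309 counts (mean 94.6 ± 13.9 TPM, SD, n = 2), and a ratio of 1.05 (1.03 to 1.07). Smooth muscle markers were higher in replicate 1 in 4 of 5 cases by counts and in all 5 by TPM, with sums of 1113 and 764 TPM and a median log2 difference of 0.47 by counts. The difference of Igfbp5 was 0.08, and the part of smooth muscle in it was not tested.

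Igfbp1 (chr11:7197782-7202546, plus strand), known as a liver gene under the control of insulin, had 3 counts in replicate 1 and 2 counts in replicate 2. That is 0.06 and 0.04 TPM, at or below the 0.06 TPM that 3 counts were worth. The ratio of 1.25 had an interval that began at 0.143 and ran far above 1, so a difference was not detectable at this depth. It lies 3539 bp from Igfbp3, which reached 48.9 and 105 TPM. Of the 5 hepatocyte markers whose counts averaged 50 or more, 4 were higher in replicate 1, and Alb, the albumin gene, was at 10.9 TPM in replicate 1 and 3.76 TPM in replicate 2. Cyp2e1, a cytochrome P450 gene of liver, went the other way, at 5.07 TPM in replicate 1 and 13.9 TPM in replicate 2.

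By counts, Igfbp2, Igfbp3, Igfbp4, Igfbp6 and Igfbp7 were lower in replicate 1, though on TPM Igfbp4 was even at a log2 difference of 0.01. Igf1 was at -0.17 by counts and 0.06 by TPM, and Igf1r at 0.11 and 0.34. Of the 8 genes whose counts averaged 50 or more, 2 were at least 2-fold lower in replicate 1, Igfbp3 and Igfbp7, and none was 2-fold higher. Among all 14708 genes at that depth, 2.2% were 2-fold lower, 4.45% were 2-fold higher and 6.66% were either. A lower scaled count in replicate 1 by any amount was seen in 6 of the 8, against 49.7% of all genes, but on TPM 4 of the 8 were lower and 4 higher. The median log2 difference was -0.65 over the 8 and -0.80 over the 6 binding proteins among them, against 0.00 over all genes. The deposited TPM intervals of the libraries (their confidence level is not stated) did not overlap for 6 of the 8, all but Igf1 and Igfbp4. That share reads against 59.6% of all genes. The intervals need not hold the deposited TPM itself. For Igfbp7 they ran from 2188 to 2220 in replicate 1 and from 4369 to 4415 in replicate 2, below its deposited 2228 and 4440 TPM. On TPM, values of all genes ran higher in replicate 1 by a median of 0.21, and on that scale Igfbp7 fell just short of 2-fold.

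**Figure D4:**
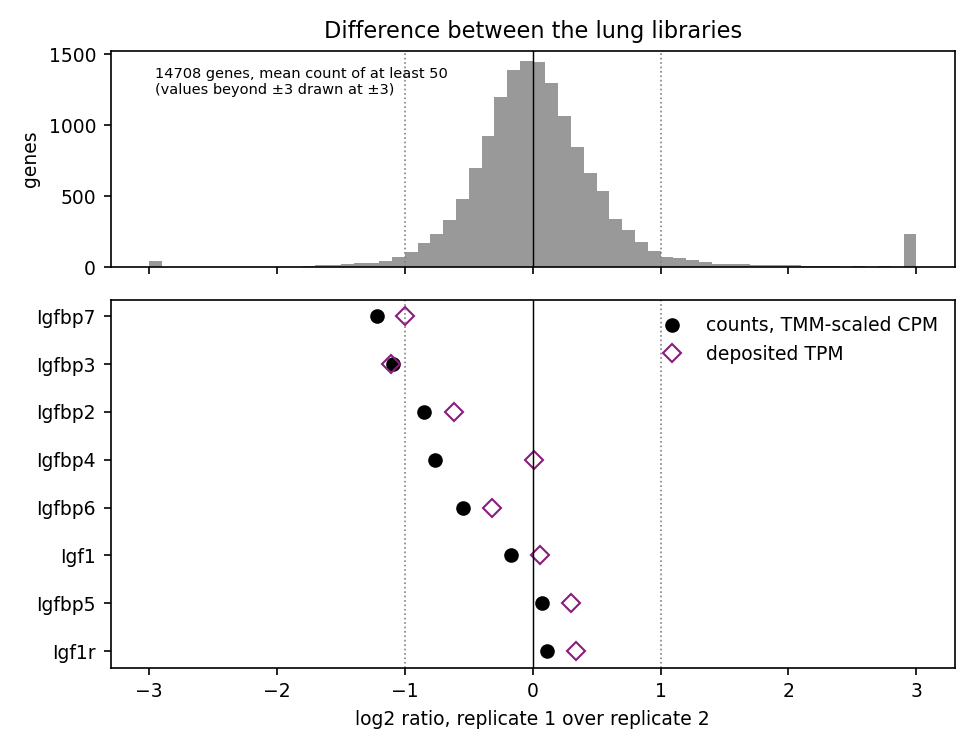
Log2 ratio of replicate 1 over replicate 2: above, all 14708 genes whose counts averaged 50 or more; below, the 8 genes of the IGF system with such a count, from TMM-scaled counts (filled) and from deposited TPM (open). Dotted lines mark 2-fold. Igfbp7 (-1.22) and Igfbp3 (-1.09) lie past the lower line by counts, and Igfbp4 is at -0.76 by counts but 0.01 by TPM.

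Transcript shares differed most between the libraries in Igfbp3 and Igfbp4. The main transcript by TPM was the same in both libraries for 4 of the 6 genes with more than 1 transcript and at least 1 TPM, against 84.8% of all such genes. The exceptions were Igfbp3 and Igfbp4. These were also the 2 of the 6 with a transcript whose share of TPM differed by 20 points or more, against 17.2% of all such genes. Of the 13 transcripts of the 9 genes whose counts averaged 50 or more, 3 were at least 2-fold apart, Igfbp3-202, Igfbp4-201 and Igfbp7-201, all lower in replicate 1, against 16.9% of all such transcripts. By counts, the main transcript was also the same in 4 of the 6, and there the exceptions were Igf1 and Igfbp3. The share of all genes by counts is not given here, so nothing is read from that count.

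The wider IGF pathway was present from ligand to kinase. Of 30 further genes, 23 were at 1 TPM or more in both libraries, against 32.0% of all gene rows. None of the 24 whose counts averaged 50 or more was 2-fold apart, against 6.66% of all genes, with a median log2 difference of -0.09, and with so few genes the count lies near that share. By counts 6 of the 24 were higher and 18 lower in replicate 1, and by TPM 16 were higher and 8 lower. The insulin genes Ins1 and Ins2 had no counts in replicate 1 and stood at 0.11 and 0.35 TPM in replicate 2. Among partners of the binding proteins, Igfals, the acid-labile subunit that joins IGFBP3 and IGF in blood, was at 2.69 TPM in replicate 1 and 3.70 TPM in replicate 2. The protease genes Pappa (0.30 and 0.29 TPM) and Pappa2 (0.19 and 0.12 TPM) were below 1 TPM. Htra1, a serine protease that also cuts binding proteins, was much higher, at 57.8 TPM in replicate 1 and 60.3 TPM in replicate 2. The stanniocalcins, which block PAPP-A, were low, with Stc1 at 1.78 and 2.28 TPM and Stc2 at 1.89 and 1.67 TPM. Of the genes related to the binding proteins, Kazald1 was at 9.24 and 10.3 TPM and Igfbpl1 at 0.16 and 0.27 TPM.

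Inside the cell, the receptor substrates Irs1 and Irs2 differed in level. Irs1 had 9.88 TPM in replicate 1 and 8.95 TPM in replicate 2. Irs2 had 22.8 TPM in replicate 1 and 35.3 TPM in replicate 2, a log2 difference of -0.63 by TPM and -0.86 by counts. By counts this was the largest difference of the 24, while by TPM those of Socs2, Pik3ca and Pik3r1 were larger. Irs4 had no counts in either library. The adaptor Shc1 stood at 74.6 and 64.9 TPM, Akt1 at 166 and 155 TPM, and Akt2 at 89.2 and 75.8 TPM. Pik3ca and Pik3r1, the catalytic and regulatory subunits of PI3 kinase, were higher in replicate 1 by 0.51 and 0.39 on the log2 scale by counts. Growth hormone drives Igf1 in liver through its receptor, JAK2 and STAT5. Ghr was at 27.0 TPM in replicate 1 and 23.5 TPM in replicate 2, Jak2 at 7.87 and 6.80 TPM, and Stat5b at 39.6 and 36.1 TPM. Socs2, a STAT5 target that restrains that pathway, was at 73.3 TPM in replicate 1 and 130 TPM in replicate 2, a log2 difference of -0.82 by TPM and -0.62 by counts. All 5 genes of this axis, with Stat5a at 16.8 and 19.1 TPM, were lower in replicate 1 by counts, 4 of them by 0.31 or less on the log2 scale, but on TPM Ghr, Jak2 and Stat5b were higher.

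**Figure D5:**
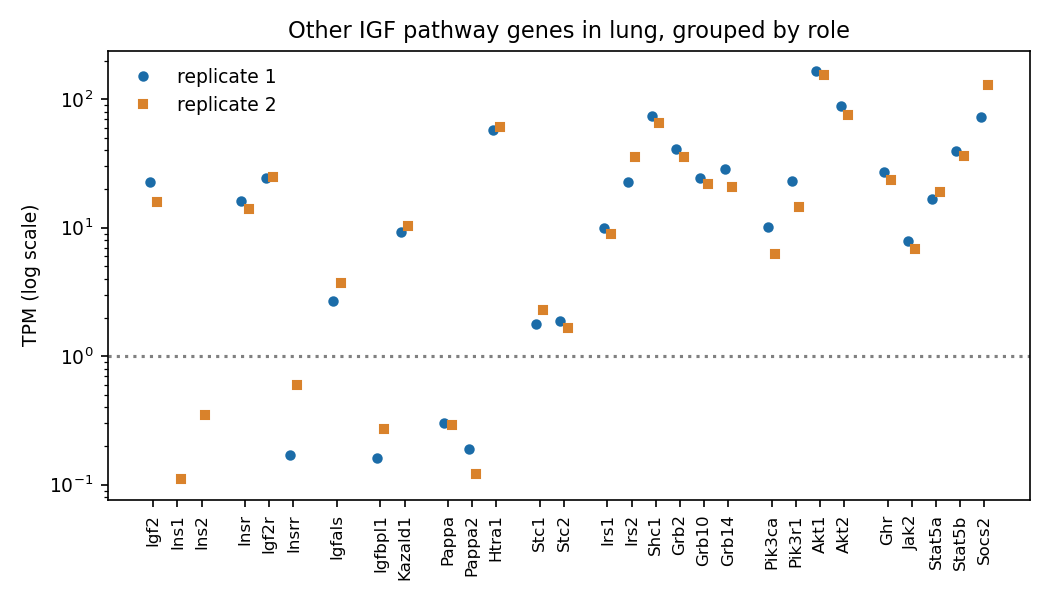
TPM (log scale) of the other IGF pathway genes in replicate 1 (circles) and replicate 2 (squares), grouped by role from ligands at the left to the growth hormone axis at the right; values of 0 are not drawn, nor is Irs4, which is at 0 in both. Akt1 and Socs2 are among the highest. The dotted line marks 1 TPM, below which Pappa, Pappa2, Insrr, Igfbpl1, Ins1 and Ins2 lie in both libraries.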

How the data were processed

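Both libraries hold polyadenylated RNA above 200 nt in size with spike-ins, read from both ends over 76 nt with strand kept, per the labels. The deposited expected counts are estimated, unnormalized fragment numbers per gene and transcript, and the deposited TPM and FPKM values divide them by library total and length, per the headers of the files. Transcript shares, deposited as a percent of gene TPM, and TPM interval bounds are also the authors' values. Reads were mapped to mm10 with GENCODE M4, per the deposited file lists, with tools not given in the sources used here. Contig and junction lists on mm9 were not used.

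Symbols, exons and coding sequences came from GENCODE M21 for mm10, which covered 42462 of the 43346 gene rows. Expected counts were rounded, scaled by TMM in edgeR 4.0.16 (R 4.3.3) and given as log2 CPM with a prior count of 2; DESeq2 1.42.0 size factors were an alternative. Other steps used Python 3.11.15. Ratios carry exact 95% intervals for counting error only, which is less than the error between animals. For transcripts, these intervals also leave out the error of dividing shared reads between models. Spike-in rows (704282 and 461067 counts) and 26248 rows of neither kind (0 and 2 counts) were left out. Transcripts of 10% or more of a gene's TPM, all pathway and marker genes and the 3 genes nearest to Igf1 and Igfbp7 could be named; Igf1-202, Igf1-203 and Igfbp7-202 were added after their values were seen. The 20-point limit on transcript shares was also set after they were seen. Genes, lists and limits were chosen with earlier results of these data known. The ratio step was tested on simulated data, which checks the calculation and not the differences given here.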

Additional observations from a re-analysis of the deposited data

How the results depend on the processing

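With 2 libraries of 1 group there is no replicate check of any difference, and the intervals cover counting error only. The share of Igfbp7 in the TPM of the 9 genes ran from 65.3% to 75.6% when either library was left out, that of Igf1-208 in the TPM of Igf1 from 78.0% to 79.7%, and 8 of the 9 genes stayed at 1 TPM or more. The share of Igf1-208 was 34.9% by counts, against 78.9% by TPM. The other models of Igf1, an alternative chosen after seeing the data, summed to 4.72 ± 0.127 TPM, with the fragments of Igf1-208 left out. The median log2 difference of the 8 genes, -0.65 by scaled counts, was -0.16 on both log2(TPM + 0.1) and log2(TPM + 1), where the median of all genes was 0.21. Over the scalings, the difference of Igf1 ran from -0.18 to 0.06 and that of Igfbp4 from -0.78 to 0.01, and the other 7 genes kept their sign. Of the 2 genes past 2-fold, 1 remained with library size scaling (Igfbp7) and 1 on log2(TPM + 0.1) (Igfbp3), and at 1.5-fold 4 passed, with Igfbp2 and Igfbp4. The 979 genes past 2-fold became 1743 at a mean count of at least 10, 3251 with no minimum and 2842 at 1.5-fold. At a mean count of at least 10, 1 pathway gene was past 2-fold, against 0 at 50; it was Igfbpl1, with 7 counts in replicate 1 and 25 in replicate 2. No paired analysis was possible because there is only 1 group. Ratios and main transcripts need both libraries and were not computed without one.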
